A study of Caenorhabditis elegans with 4 samples.

Results

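The regions described here are the 370 peaks on chromosome III, of 2381 peaks in all, in a map of where the transcription factor LIN-11 was bound in the nematode Caenorhabditis elegans. They are all entries of the list placed on chromosome III, and no measured value entered the choice. The method was ChIP-seq (chromatin immunoprecipitation, then sequencing), which recovers DNA crosslinked to a protein and sequences it beside unselected input DNA. The animals were hermaphrodites of strain OP62 at larval stage L2, grown at 20 degrees Celsius, and carried the mutation unc-119(ed3) on chromosome III. Their transgene wgIs62 supplied a working unc-119(+) together with the fusion lin-11::TY1::EGFP::3xFLAG, introduced by bombardment, so that LIN-11 was made with tags. ChIP and input libraries come from this same strain, and no untagged strain was analysed here. Whole animals were used, so the peaks cannot be assigned to a cell type. There were 2 ChIP libraries, recovered with a goat antibody against GFP, and 2 input libraries. The authors combined all 4 into 1 list without tag counts, so library depth is unknown and replicates cannot be compared.

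LIN-11 belongs to the LIM homeodomain family, whose members bind DNA through the homeodomain and partner proteins through paired LIM zinc fingers. In the worm it is known for patterning vulval lineages and for the differentiation of several neuron classes. The worm's chromosomes have no single centromere, and on autosomes a gene-rich centre with little recombination lies between arms that hold more repeats. Chromosome III also carries the worm's Hox genes lin-39, ceh-13, mab-5 and egl-5. None of these genes is assigned to a peak here, because the peaks are placed on WormBase build WS180 and no annotation or genome of that build was used.

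Chromosome III had the second highest density of peaks, close to that of II, and the shortest extent. Its peaks numbered 26.9 per Mb (exact Poisson 95% interval 24.2 to 29.7) over 13.8 Mb, taken from base 1 to the end of its last peak. It held 15.5% of the peaks on 13.8% of the summed extent. The peaks covered 203 kb, or 1.48% of the chromosome, a share second to the 1.90% of chromosome I.

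Set against single chromosomes, III lay between chromosome I and the sparser IV, V and X. Its density was 0.698 times that of chromosome I (95% interval 0.611 to 0.797; exact binomial adjusted p = 1.81e-07). It was 1.62 times that of V (1.39 to 1.88; exact adjusted p = 8.96e-10) and 1.42 times that of IV (1.22 to 1.65; exact adjusted p = 9.28e-06). Against X the ratio was 1.30 (1.12 to 1.50; exact adjusted p = 0.000703). Chromosome II was its nearest neighbour in density, with a ratio of 1.03 whose interval ran from 0.895 to 1.19 (exact adjusted p = 0.664). In the better-scoring 1190 peaks of the list that ratio was 1.24 and passed (exact adjusted p = 0.0401). Against the other 5 chromosomes together the ratio was 1.15 (1.02 to 1.28; exact adjusted p = 0.0193). It was 1.33 when chromosome I was left out (exact adjusted p = 5.63e-06). That step was added after the values were seen. Chromosome I was the only denser one, so leaving it out could only raise the ratio, and this p-value is no separate support. These tests treat peaks as independent, cover counting error over peaks and say nothing of variation between cultures. Peaks were more clustered than that: over the 6 chromosomes, the variance of counts in 1 Mb bins was 1.32 to 3.94 times their mean. The intervals are therefore too narrow and the p-values too small, which matters most for the ratio of 1.15.

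**Figure D1:**
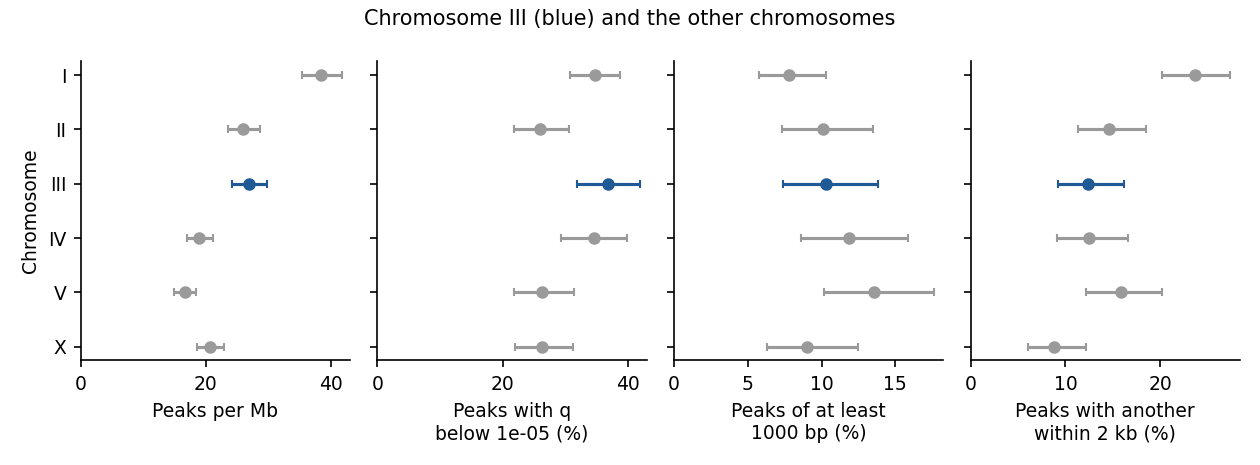
Points give, for each chromosome, peaks per Mb (exact Poisson 95% interval) and the percentage of its peaks with a q-value below 1e-05, of at least 1000 bp, or with another peak midpoint within 2 kb (exact binomial 95% intervals). Chromosome III, in blue, has 26.9 peaks per Mb, below chromosome I and above IV, V and X, and the highest share of low q-values, 36.8%, with an interval that overlaps those of I and IV.

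Peaks were found along the whole of chromosome III, from the first at 25547 to 26040 (494 bp, q-value 1.32e-08) to the last at 13771113 to 13771400 (288 bp, q-value 0.00362). The 13 full bins of 1 Mb held 18 to 36 peaks with a median of 25. The emptiest was the bin from 2 to 3 Mb with 18 peaks, followed by those from 6 to 7 Mb and from 9 to 10 Mb with 19 each. The fullest was the bin from 10 to 11 Mb with 36 peaks, and those from 5 to 6 Mb and from 8 to 9 Mb held 35 each. The incomplete last bin, 0.771 Mb long, held 28 peaks, which is 36.3 per Mb. Full and sparse bins lay side by side, as at 5 to 6 Mb with 35 peaks and 6 to 7 Mb with 19. The variance of the full bins was 1.66 times their mean, against 1.32 to 3.94 on the other chromosomes, where II had the highest value.

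Few stretches of chromosome III were without peaks. Of its 137 full windows of 100 kb, 13 (9.49%) held none. The share of empty windows was 4.03% on chromosome I and ran from 17.1% on II to 28.4% on V among the other 4 chromosomes. II has almost the same density as III and held 26 empty windows of 152. This comparison is a description and was not tested.

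No excess or deficit of peaks was detectable in the centre of chromosome III. The chromosome was cut into 3 segments of equal length, 4.59 Mb each, and not at the limits of its arms. It held 108 peaks in the left segment, 126 in the central one and 136 in the right one. The central segment thus had 34.1% of the peaks (exact binomial 95% interval 29.2 to 39.1%), and an exact binomial test against an even share did not pass (adjusted p = 0.783). The other autosomes together had 527 of 1646 peaks, or 32.0%, in their central segments, an odds ratio of 1.10 (0.856 to 1.40; Fisher's exact adjusted p = 0.592). With a wider centre, from 25 to 75% of the extent, chromosome III had 186 peaks there (50.3%).

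The outer segments of chromosome III differed more from each other than either did from the central one, but not beyond counting error. The right segment held 29.6 peaks per Mb (24.9 to 35.0) and the left 23.5 (19.3 to 28.4). Their ratio of 1.26 had an interval from 0.971 to 1.64 and did not pass the exact binomial test (adjusted p = 0.167). The same ratio was 1.99 on chromosome II, 1 on V, 0.874 on I and 0.580 on IV, so that of III was the second highest of the 5 autosomes. In the left segment 1.26% of the bases were covered by peaks, against 1.55% in the centre and 1.62% in the right segment.

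**Figure D2:**
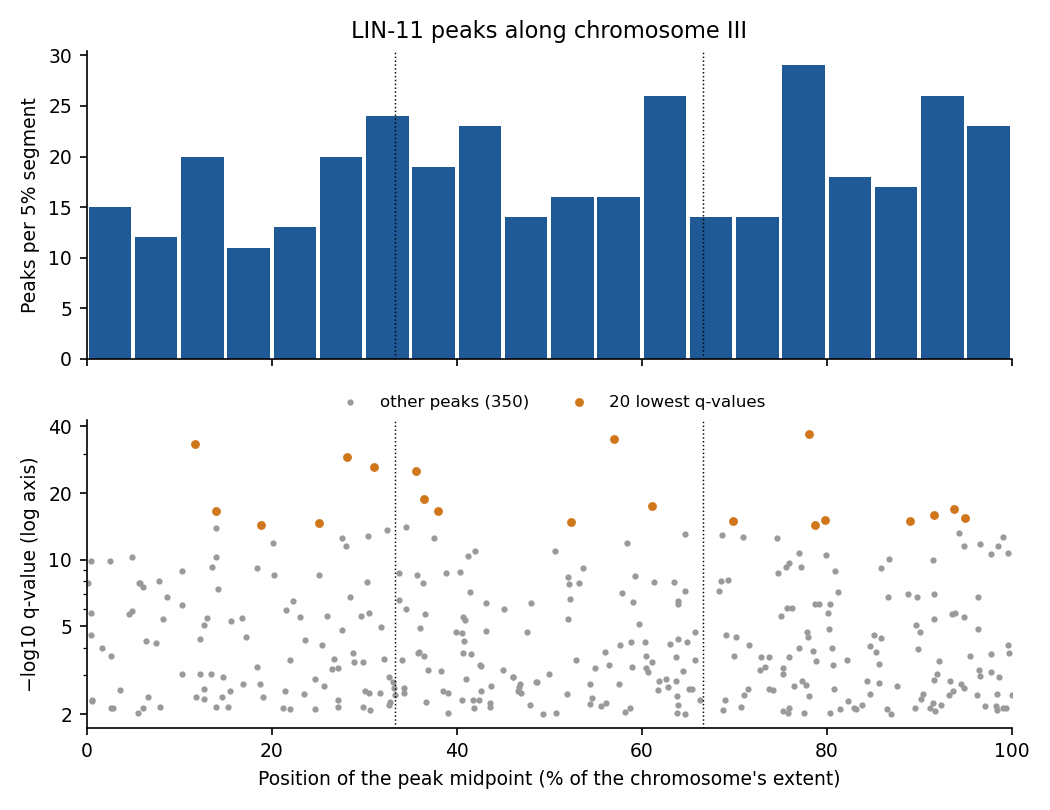
The upper panel counts chromosome III peaks in 20 segments of equal length, and the lower panel gives each peak's minus log10 q-value on a log axis against its position as a percentage of the extent, with dotted lines between the 3 segments named in the text. Counts run from 11 in the fourth segment to 29 in the sixteenth, and the 20 peaks with the lowest q-values, in orange, lie in all 3 parts of the chromosome and in neither outermost 5%.

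Chromosome III had the largest share of low q-values of the 6 chromosomes, but its difference from the others just missed the threshold. The q-value is the authors' own, given once per peak by the caller, and is used here to rank and describe peaks. The chromosome III values ran from 8.34e-38 to 0.00979 with a median of 0.00021, against 0.000361 for the peaks of the other chromosomes. Of the 370 peaks, 136 (36.8%, exact binomial 95% interval 31.8 to 41.9%) had a q-value below 1e-05, against 602 of 2011 (29.9%) elsewhere. The odds ratio was 1.36 (1.07 to 1.72). Fisher's exact test gave p = 0.0102 and, adjusted over the 5 shares compared, p = 0.0509, which missed the threshold of 0.05. With chromosome I left out, a step added after the values were seen, the ratio was 1.49 and passed (Fisher's exact adjusted p = 0.00711). The share on I, 34.6%, was above the 29.9% of the other chromosomes together, so leaving it out had to raise the ratio. That p-value is no separate support, and the planned comparison stays as missed. By chromosome, the share of III stood beside 34.6% on I and 34.5% on IV, while II, V and X had 25.9 to 26.3%. At a stricter q-value of 1e-10, III had 48 peaks (13.0%), close to the 13.2% of chromosome I, and the odds ratio against the others was 1.22 (Fisher's exact adjusted p = 0.592).

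At the very top of the ranking chromosome III was not ahead. It had 1 of the 10 lowest q-values in the list, 6 of the lowest 50 and 12 of the lowest 100. Among the lowest 500 it had 94, or 18.8% (exact binomial 95% interval 15.5 to 22.5%), against 15.5% of the whole list. The lowest q-value of the list, on X, was 6.93e-72, and the strongest peak of III ranked 9.

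Within chromosome III, no difference in low q-values between the central and the outer segments was detectable. Of the central peaks, 42 of 126 (33.3%) had a q-value below 1e-05, against 94 of 244 (38.5%) in both outer segments, an odds ratio of 0.798 (0.494 to 1.28; Fisher's exact adjusted p = 0.473). The left segment, with the fewest peaks, had the highest such share, 41.7%, and the lowest median q-value, 8.86e-05.

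The strongest chromosome III peak lay at 10758932 to 10760128 in the right segment, 1197 bp wide, with a q-value of 8.34e-38. The second, at 7854416 to 7854819, was only 404 bp wide with a q-value of 8.27e-36, and its nearest neighbour lay 73740 bp away. The third, at 1618686 to 1619364 (679 bp, q-value 6.59e-34), was the first peak after 194018 bp without one, and its next neighbour lay 2034 bp to the right. These 3 peaks stood in the right, central and left segments and ranked 9, 11 and 13 in the whole list.

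The next peaks in order lay between 3.8 and 5.3 Mb, with weaker peaks between them. They were 3867378 to 3868442 (q-value 7.61e-30), 4281845 to 4282762 (5.02e-27), 4899624 to 4900131 (6.4e-26) and 5018106 to 5018483 (1.45e-19). A further peak of the same stretch, at 5227951 to 5229130, had a q-value of 2.68e-17. The stretch thus held 5 of the 11 lowest q-values of the chromosome, an arrangement singled out after its values were seen. The 1 Mb bins it overlaps, from 3 to 6 Mb, held 25, 32 and 35 of all 370 peaks. Whether low q-values were more frequent in the stretch than peaks of any strength was not tested. The remaining peaks of the first 10 were 8416938 to 8417991 (4.08e-18), 12904913 to 12905285 (1.36e-17) and 1923282 to 1924087 (2.2e-17).

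The other 9 of the 20 strongest had q-values from 1.07e-16 to 5.33e-15, and the twentieth ranked 126 in the whole list. Of these 9, 5 lay beyond 10 Mb, at 12612301 to 12613731, 13070249 to 13071037, 10989053 to 10989946, 12250144 to 12250728 and 10848770 to 10849252. The others were 9618794 to 9619841, 7207899 to 7208204, 3459567 to 3460450 and 2597050 to 2597414. By segment the 20 strongest were split 6, 6 and 8 from left to right, and all 370 peaks 108, 126 and 136. Beyond 10 Mb the 1 Mb bins held 36, 29, 28 and, in the incomplete last bin, 28 of the 370 peaks.

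The strongest regions of chromosome III were spaced much like the rest. Among the 20, the median distance to the nearest other peak was 9132 bp, against 10165 bp over all 370, and 3 had a neighbour less than 2 kb away, against 67 of the 370. Those 3 were the peaks starting at 1923282, 12612301 and 13070249.

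Chromosome III peaks were of ordinary width. The median was 416.5 bp with quartiles of 296 and 686 bp, against a median of 396 bp on the other chromosomes. Wide peaks of at least 1000 bp numbered 38 (10.3%), against 204 of 2011 (10.1%) elsewhere, an odds ratio of 1.01 (0.684 to 1.47; Fisher's exact adjusted p = 0.926). Very narrow ones, under 50 bp, numbered 17 (4.59% against 3.88%; odds ratio 1.19, interval 0.654 to 2.07; Fisher's exact adjusted p = 0.592). The narrow peaks had high q-values, from 0.000917 to 0.00727, and 9 of the 17 lay in the right segment. Of the central peaks 11.9% were wide, against 9.43% in the outer segments (odds ratio 1.30, 0.604 to 2.72; Fisher's exact adjusted p = 0.473). The left segment had the fewest wide peaks, 7 of 108, although its median width, 470.5 bp, was above the 374.5 bp of the right segment.

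The widest regions of chromosome III were not its strongest. The 10 widest had no peak in common with the 20 strongest, while the same lists on each other chromosome shared 2 to 4. These shared counts are small, and the difference between chromosomes was not tested. By q-value the 10 widest ranked from 41 to 129 of the 370 peaks. The widest peak spanned 4059 bp at 8443595 to 8447653 and ranked 75 on the chromosome, with a q-value of 1.17e-08. The second, 3452 bp at 12614005 to 12617456, ranked 129 with a q-value of 3.93e-06, and began 273 bp after the strong peak at 12612301. Next came 5939181 to 5941582 (2402 bp), 13462815 to 13465159 (2345 bp) and 13718306 to 13720626 (2321 bp). The others were 348278 to 350462 (2185 bp), 1924729 to 1926907 (2179 bp), 13061040 to 13063157 (2118 bp), 64817 to 66658 (1842 bp) and 12367496 to 12369205 (1710 bp). Of these 10, 4 lay in the outermost 5% at either end, where 38 of the 370 peaks lay. Another peak lay less than 2 kb from 7 of them.

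Width and q-value were still related over the chromosome as a whole. Over these 370 peaks the Spearman rho between width and minus log10 q was 0.43, and the Pearson r was 0.27. This describes peaks that share the same libraries, and the caller's q-value rests on the tags it finds in the region itself. Median width fell from 552 bp in the strongest 93 peaks to 313 bp in the weakest 92. The rho of the other chromosomes ran from 0.42 on II to 0.54 on I.

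**Figure D3:**
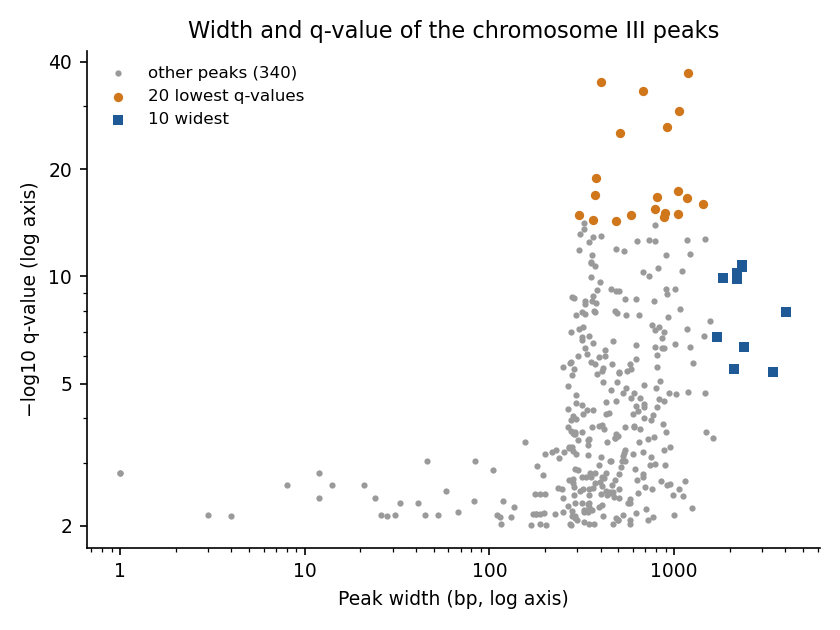
Each point is 1 of the 370 chromosome III peaks, with its width in bp against its minus log10 q-value, both on log axes. The 20 peaks with the lowest q-values (orange circles) are 306 to 1431 bp wide. The 10 widest (blue squares, 1710 to 4059 bp) have q-values no lower than 1.79e-11. Both sets are cut by rank from a continuous range.

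Neighbouring peaks on chromosome III were separated by a median of 24.1 kb, edge to edge, with quartiles of 7.93 and 51.2 kb. The median gap was 14.2 kb on chromosome I, 21.9 kb on II and 30.1 to 33.1 kb on IV, V and X. A denser chromosome has shorter gaps, but the median gap of III was longer than that of II at a similar density. Gaps under 5 kb made up 18.2% on III (67 of 369) and 26.0% on II (103 of 396), at densities of 26.9 and 26.0 peaks per Mb. This difference was not tested.

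Close pairs made up a smaller share on III than on the other chromosomes together, within counting error. Another peak midpoint lay within 2 kb of 46 peaks (12.4%, interval 9.25 to 16.2%), against 322 of 2011 (16.0%) on the other chromosomes. The odds ratio of 0.745 had an interval from 0.523 to 1.04 (Fisher's exact adjusted p = 0.213). By chromosome the share ran from 8.77% on X through 12.5% on IV to 23.7% on the denser chromosome I, and without I the odds ratio was 0.954 (Fisher's exact adjusted p = 0.862). Neighbours come in pairs, so these p-values are too small.

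No chromosome had a gap shorter than 200 bp, so this floor is not particular to chromosome III. The shortest gap was 230 bp on III and ran from 202 to 295 bp on the others. The gap of 230 bp separated the wide peak at 5939181 to 5941582 from one at 5941813 to 5943004. Gaps of 236, 241, 260 and 266 bp followed. These 4 gaps separated 9051300 to 9052931 from 9053168 to 9054188, 12367496 to 12369205 from 12369447 to 12369722, 8794670 to 8795137 from 8795398 to 8796262, and 10460523 to 10460809 from 10461076 to 10461470. The q-values in these 5 pairs ran from 2.27e-10 to 0.00957, so none is among the 20 strongest.

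Joined at gaps under 5 kb, the chromosome III peaks formed 303 runs. Of these, 252 were single peaks, 39 held 2 peaks and 12 held 3 or more. The longest run had 5 peaks over 10170 bp, from 8794670 to 8804839, with a lowest q-value of 3.4e-07. Runs of 4 peaks lay at 1920929 to 1931892 and at 12608014 to 12618846, and each contained a peak of the 20 strongest. Of the 118 peaks in runs of at least 2, 54 (45.8%) had a q-value below 1e-05, against 82 of 252 single peaks (32.5%). That comparison was made after the values were seen and carries no test.

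The fullest 100 kb window of chromosome III, at 12.6 to 12.7 Mb, held 8 peaks and took in the second of these runs of 4. Its peaks began at 12602595 (q-value 0.00554), 12608014 (1.05e-07), 12612301 (1.07e-16), 12614005 (3.93e-06), 12618742 (0.00138), 12626207 (0.00841), 12665310 (0.000925) and 12687924 (0.000334). The first 6 lay within the first 26.7 kb of the window, and 3 of the 8 had a q-value below 1e-05.

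The longest stretch of chromosome III without a peak ran from 9133836 to 9406573, or 272738 bp. It was bounded by a weak peak at 9133545 to 9133835 (q-value 0.00478) and a stronger one at 9406574 to 9406894 (5.94e-08). The longest gap was 178 kb on chromosome I and 280 to 553 kb on the others. Next on III came 215966 bp from 1202738 to 1418703 and 194018 bp from 1424668 to 1618685. Between these 2 gaps stood a run of 3 peaks at 1418704 to 1424667, so that the 415948 bp from 1202738 to 1618685 held that run alone. The third strongest peak of the chromosome ended this stretch on the right, and a peak at 1201875 to 1202737 (1.8e-07) bounded it on the left. The remaining gaps of the longest 5 were 178400 bp from 6020272 to 6198671 and 173185 bp from 6982209 to 7155393. The peaks at their edges began at 6019792, 6198672, 6982020 and 7155394 and had q-values from 0.000669 to 0.0094. With unknown depth, a gap is a stretch where none was detected.

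**Figure D4:**
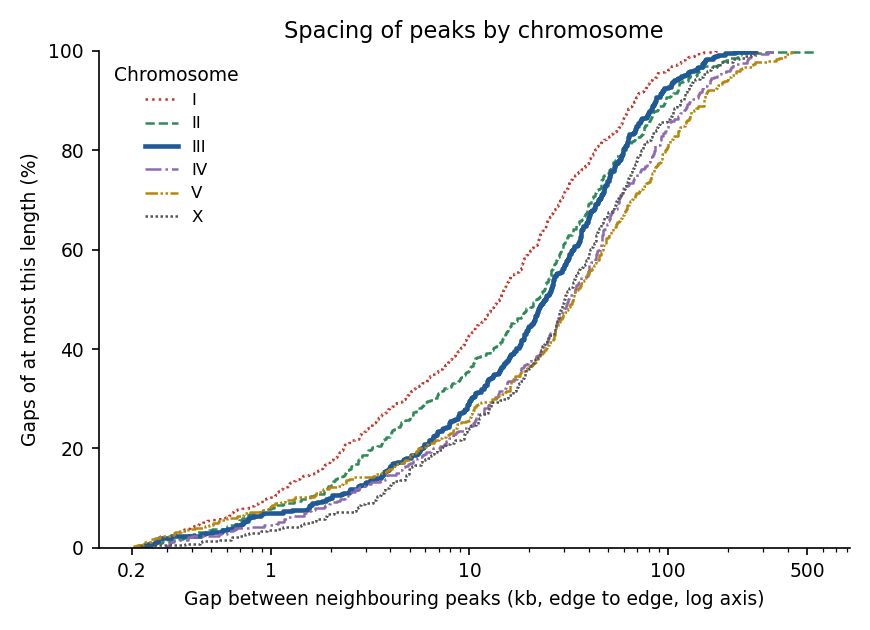
Curves give, for each chromosome, the percentage of gaps between neighbouring peaks (edge to edge, log axis in kb) that are at most a given length. Chromosome III, the thick blue line, has a median of 24.1 kb, between those of II and X, and 18.2% of its gaps are under 5 kb, against 26.0% on II and 15.9 to 18.3% on IV, V and X.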

How the data were processed

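The authors deposited 1 combined peak list from 2 ChIP and 2 input libraries. Peaks were called with PeakSeq and placed on WormBase build WS180, per the file headers. PeakSeq sets ChIP tags against input tags. Its version, the aligner and filters are not given in the sources used here. Each entry has a start, an end and a q-value computed by the authors, all below 0.01, and nothing per library.

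Widths count both end bases, and gaps run from edge to edge. A chromosome's extent was taken as the end of its last peak. Densities were compared by two-sided exact conditional binomial tests, adjusted by the Benjamini-Hochberg method over 6 comparisons. Positions along III used exact binomial tests (2 in a family), and shares used Fisher's exact test, adjusted over 5 shares against the other chromosomes and over 2 within III. The threshold was an adjusted p of 0.05. Poisson and Clopper-Pearson intervals are 95%, and odds ratios carry conditional exact intervals. All cover counting error only. Tests of density against the other chromosomes together, the central share, the low q-value share and the wide share were tried on simulated lists. Those lists placed peaks independently, so they did not cover clustered peaks. The other tests were not tried in this way. Python 3.11.15 and scipy 1.17.1 were used.

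The regions, tests and naming rule (on III the 20 lowest q-values, 10 widest, first and last peak, 5 longest and 5 shortest gaps, fullest 100 kb window) were chosen with earlier results of these data known. Runs, empty windows and leaving out chromosome I were added after the values were seen. The gene table at hand is of assembly WBcel235, so no gene or sequence is given.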

Additional observations from a re-analysis of the deposited data

How the results depend on the processing

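For 16 results, 84 alternative values were computed, and 69 had the direction of the reported value and passed or missed the threshold as it did (for the correlation, lay within its 95% interval). The 5 density ratios that passed did so under every alternative run. Using only the better-scoring 1190 peaks (201 on III) brought the density ratio against II past it (1.24). There the central share turned to 32.8%, the odds ratio of the centre against other autosomes to 0.938, of wide peaks to 0.981, of narrow peaks to 0 and of close neighbours to 1.02, none past the threshold, and the width correlation fell to 0.19. The odds ratio of q-values below 1e-05, which had missed the threshold, passed it without peaks under 50 bp (1.39) and with peaks less than 1 kb apart merged (1.38). It also passed without chromosome I (1.49), a step added after the values were seen, which had to raise it and is no separate support. Its Fisher's exact adjusted p ran from 0.00711 to 0.592 over the alternatives. The odds ratio of wide peaks turned to 0.986 after merging and 0.919 without chromosome I, and that of narrow peaks to 0.954 at 100 bp. Without the widest 10% the central share was 33.3%, an even share. For wide peaks in the centre, a limit of 800 bp gave 0.987. The cause was not tested. No paired analysis was possible because the list combines the replicates, so none could be left out either. Unknown depth limits any statement on missing peaks.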

Other observations

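The q-values of chromosome III can be written as tag numbers, by inference from the authors' values. Each q-value in the list, times its line number and divided by 20869, equalled a one-sided binomial probability, at even odds, for some pair of whole numbers, within a relative tolerance of 1e-11. This held for 2381 of 2381 peaks, and for 0 with 20868 or 20870 in its place. No other number from 5000 to 60000 matched any of the first 100 peaks. All 370 peaks of III had a single pair. The larger number of a pair is read here as ChIP tags and the smaller as input tags after the caller's scaling. That reading is not stated in the list.

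On this reading chromosome III peaks held many tags and were modestly enriched. The median peak had 117 ChIP tags (17 to 711) and 55 input tags (2 to 494), and both medians were above those of each other chromosome (89 to 107 and 37 to 54). ChIP over input had a median of 2.13 (quartiles 1.83 and 2.79), below the 2.30 to 2.48 of the other autosomes and next to the 2.11 of X. On III 148 peaks (40%) had a ratio under 2, against 30.6% of the 2008 peaks elsewhere with a single pair, from 19.2% on I to 42.7% on X. The higher share of low q-values on III thus stood beside a lower ratio and higher tag numbers. On this reading a q-value is set by both tag numbers of the peak and by its place in the list. No test was made of how far the differences between chromosomes go with either tag number.

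Leaving aside 31 peaks under 50 bp or with fewer than 10 input tags, 339 remained on III. Of the 31, 13 had a ratio above the highest among the 339. The 20 highest ratios of the 339 ran from 3.31 to 5 at widths of 180 to 679 bp, and 4 of these peaks were among the 20 lowest q-values. The highest of them was at 3573216 to 3573466, with 50 ChIP tags and 10 input tags. The peak at 7854416 to 7854819, second by q-value, had 301 ChIP and 62 input tags, a ratio of 4.85. The strongest by q-value, at 10758932 to 10760128, had 501 and 163, a ratio of 3.07. The 10 widest peaks had ratios of 1.36 to 1.91 with 150 to 494 input tags. For the 17 peaks under 50 bp the ChIP number ran from 17 to 22 and the input number from 2 to 5. Their high q-values thus stood beside few tags and not beside a low ratio.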
